A study of Homo sapiens with 6 samples.

Results

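Integrins, cadherins, claudins and the connexins of gap junctions are the membrane proteins with which cells hold the matrix and one another. They were followed in NCI-H295A, an established human adrenocortical carcinoma line that makes steroids, as 1 of many gene families on 6 oligonucleotide arrays. The genes were chosen by symbol alone, as those that the array's annotation names as an integrin subunit with a numbered chain or ITGAV, a numbered cadherin, a numbered claudin, or a connexin of the A, B or C group. This gave 62 of 11963 genes with a symbol of their own, measured by 100 probe sets: 12 integrin alpha chains, 7 integrin beta chains, 18 cadherins, 15 claudins and 7 connexins. The pattern also took in 3 genes that are no adhesion receptors, ITGB1BP1, ITGB1BP2 and ITGB3BP, whose products are named for binding integrin beta tails. Each gene is given by the probe set with the highest mean log2 signal over the 6 arrays.

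Cells on 3 plates were given 1 mM 8-Br-cAMP over 18 h, and the control cells on 3 plates were not. 8-Br-cAMP is a cell-permeable analogue of cyclic AMP, the second messenger of the pituitary hormone ACTH in adrenal cortex. All plates came from the same line, which stands for 1 tumour, in medium with 2% fetal calf serum, insulin and selenium. Arrays carry a number from 1 to 3 in each group. The design text speaks both of 3 plates and of 3 experiments and ties the numbers to neither, so p-values measure the spread between these arrays, which may be technical.

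Integrins are dimers of an alpha and a beta chain. ITGB1 encodes the beta chain shared by most alpha chains that bind collagen, laminin and fibronectin, and ITGAV pairs with several beta chains to bind RGD-containing matrix proteins. Classical cadherins join cells through like-with-like contacts and are tied to actin by catenins. Claudins form the strands of tight junctions, and connexins the channels of gap junctions, which in adrenal cortex are known to pass second messengers between cells.

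The arrays numbered 1 stood apart in both groups. The ratio of 3' to 5' signal of the actin control, a sign of RNA integrity, was 38.8 on 8-Br-cAMP 1 and 5.72 on control 1, against 1.93 to 2.41 on the other 4 arrays. The log2 signals of 8-Br-cAMP 2 and 3 correlated at 0.980 and those of controls 2 and 3 at 0.961 across probe sets, while 8-Br-cAMP 1 and control 1 correlated with the other arrays of their group at 0.776 to 0.833. The gene families are therefore also given by same-numbered pair and without the arrays numbered 1. All 10 adrenocortical markers were above the filter level, at a summed signal of 28310 to 60447 after 8-Br-cAMP and 8396 to 28616 in controls. Of the chromaffin, fibroblast, endothelial, leukocyte and epithelial lists, 1 of 6, 4 of 8, 2 of 8, 3 of 7 and 3 of 9 measured markers were above it. The endothelial list summed to 381 to 498 after 8-Br-cAMP and 247 to 296 in controls, with VWF at 292.3, 224.5 and 289.2 after 8-Br-cAMP against 13.2, 17.8 and 123.8 in controls. TEK, also without overlap but in the opposite direction, had 11.3, 20.7 and 14.2 after 8-Br-cAMP against 106, 60.7 and 68.1 in controls, and its mean was below the level, as were those of KDR and CD34. The sums after 8-Br-cAMP and in controls were 200 to 305 and 198 to 353 for the chromaffin list, 408 to 498 and 380 to 730 for the fibroblast list, and 161 to 384 and 213 to 290 for the leukocyte list. The epithelial list summed to 1053 to 1429 after 8-Br-cAMP and 1159 to 2320 in controls, with EPCAM below the level. Its largest part on every array was KRT18, with 980.2, 853.3 and 776.3 after 8-Br-cAMP, against 887.5, 1914.3 and 1905 in controls. KRT7 was higher after 8-Br-cAMP in all 3 pairs, and KRT8 in 1. The part of these markers in the results below was not tested.

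Of the 62 genes, 21 had a mean signal above the filter level of 45.5, the 40th percentile of all probe sets, and 41 did not. The 21 were 9 of 12 integrin alpha chains, 3 of 7 beta chains, 3 of 18 cadherins, 4 of 15 claudins, 0 of 7 connexins and 2 of the 3 integrin-binding protein genes. CLDN10 (mean log2 signal 5.50) lay just under the level of 5.51 and ITGB3 (5.52) just over it.

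**Figure D1:**
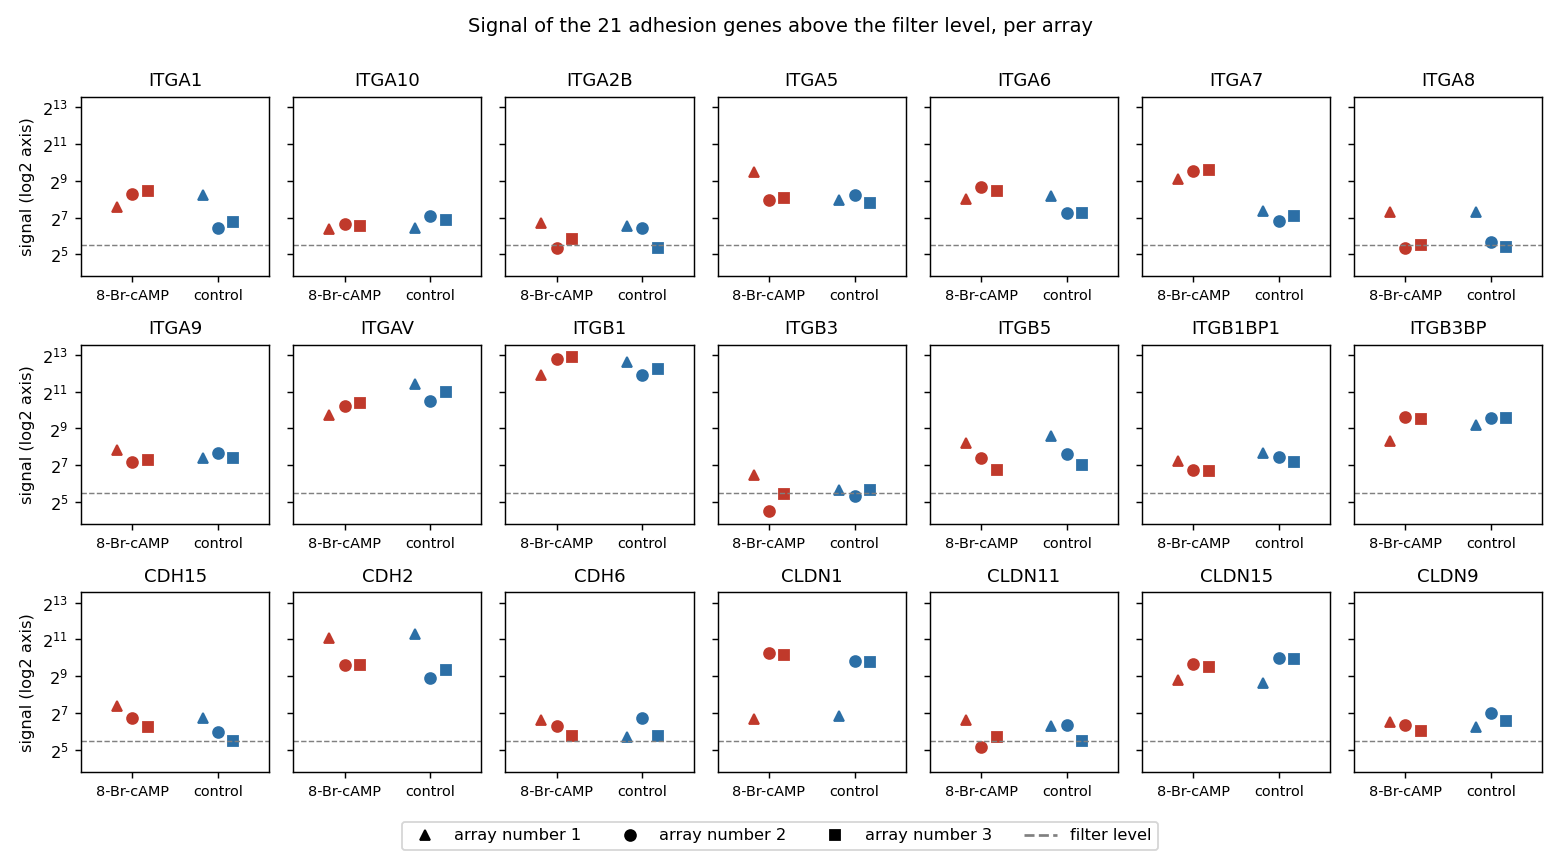
Signal of each of the 21 genes above the filter level on every array, on a log2 axis, with 8-Br-cAMP left of control in each panel. Triangles, circles and squares are arrays 1, 2 and 3, and the dashed line is the filter level. ITGA7 is higher on all 3 8-Br-cAMP arrays, ITGAV lower, and CLDN1 far lower on the array numbered 1 of each group.

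ITGA7 was the 1 gene of the 62 to change in the paired fit, in which the array number is a block, and it rose 4.98-fold. It encodes the α7 chain, which pairs with β1 as a receptor for laminin and is best known from muscle. Its signal was 539.7, 737 and 778.9 on the 8-Br-cAMP arrays, against 165.4, 111 and 136.6 on the control arrays. The lowest 8-Br-cAMP array lay above the highest control array, so the groups did not overlap. The mean log2 signal was 9.40 ± 0.29 after 8-Br-cAMP and 7.09 ± 0.29 in controls (SD, n = 3 each), a log2 difference of 2.32 (SE 0.26, 95% interval 1.69 to 2.95, paired limma adjusted p = 0.0142). By pair the log2 difference was 1.71, 2.73 and 2.51. Without the block limma's adjusted p was 0.0511, which misses the threshold of 0.05. A second probe set of the gene had signals of 122, 314.4 and 197.6 after 8-Br-cAMP and 103.2, 87 and 56.1 in controls, again without overlap. Its log2 difference of 1.30 passed neither fit (paired adjusted p = 0.121). More cells with the transcript and more transcript per cell cannot be told apart on arrays of whole plates.

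Read against the whole table, 1 of 21 adhesion genes passed the paired fit (4.76%), where 3.68% of all 7927 genes did, 1.73% higher and 1.96% lower. The share is near the background and is no result about the families. Without the block 0 of 21 and 0 of 7927 genes passed limma (0% of all genes), with 3 of the 21 (ITGA7, ITGAV and ITGA6) and 11.9% of all genes at an unadjusted p under 0.05. With the block these were 4 of 21, with CDH15 added, and 22.4% of all genes. The groups did not overlap for ITGA7 and ITGAV, 2 of the 21 genes, against 19.9% of all genes (6.32% higher and 13.6% lower). The sign was the same in all 3 pairs for 6 of the 21, against 44.7% of all genes (15.2% higher and 29.5% lower). These 6 were ITGA7 and CDH15, higher after 8-Br-cAMP, and ITGAV, ITGA10, ITGB5 and ITGB1BP1, lower. The median log2 difference of the 21 genes was -0.07, and that of all genes was -0.14.

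Among the other integrin alpha chains, ITGA6 and ITGA1 were lower after 8-Br-cAMP in pair 1 and higher in pairs 2 and 3. ITGA6, which encodes the α6 chain of laminin receptors, had signals of 258.8, 398.5 and 350.8 after 8-Br-cAMP, against 284.5, 151 and 149.9 in controls. ITGA1, which encodes the α1 chain of a collagen and laminin receptor, had 188.2, 313.8 and 350.3 after 8-Br-cAMP, against 294.5, 84.9 and 108.3 in controls. For both genes control 1 lay among the 8-Br-cAMP arrays and the groups overlapped. Pairs 1, 2 and 3 gave ITGA6 log2 differences of -0.14, 1.40 and 1.23, with a mean of 0.83 (95% interval 0.02 to 1.64, paired adjusted p = 0.224). They gave ITGA1 log2 differences of -0.65, 1.89 and 1.69, with a mean of 0.98 (-0.21 to 2.16, paired adjusted p = 0.312).

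ITGB1, the beta chain that these alpha chains share, followed the same order. Its signal was 3853.9, 6999.3 and 7472 after 8-Br-cAMP, against 6158.9, 3795.5 and 4716.8 in controls. Control 1 lay above 8-Br-cAMP 1, which lay between controls 2 and 3, and the groups overlapped. Pair by pair the log2 differences were -0.68, 0.88 and 0.66, with a mean of 0.29 (-0.45 to 1.03, paired adjusted p = 0.639). Its 4 other probe sets lay below the filter level. Among them 1 was lower without overlap, at 4.4, 3.9 and 8.6 after 8-Br-cAMP, against 30.4, 20.2 and 36.4 in controls. On the rest the groups overlapped.

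ITGAV was lower after 8-Br-cAMP in every pair but did not pass. The α chain it encodes binds vitronectin and other RGD-containing ligands. Its signal was 866, 1179.8 and 1320 after 8-Br-cAMP, against 2778.6, 1429.9 and 2007.9 in controls. All 3 8-Br-cAMP arrays lay below all 3 control arrays. Its log2 differences by pair were -1.68, -0.28 and -0.61, with a mean of -0.85 (-1.55 to -0.16, paired adjusted p = 0.165). Pair 1 thus gave the widest gap here, and in ITGA7 the narrowest. Of the beta chains known to pair with the ITGAV product, ITGB5 differed by -0.29 (-0.80 to 0.23) and ITGB3 by -0.07 (-1.22 to 1.07), with paired adjusted p of 0.488 and 0.951. The 4 probe sets of ITGB5 above the level did not share a direction, with log2 differences of -1.12, -0.29, 0.21 and 0.14. The first was lower without overlap, at 33.2, 24.3 and 39.5 after 8-Br-cAMP, against 63.5, 92.2 and 56.1 in controls. It did not pass (paired adjusted p = 0.229), and on the others the groups overlapped. ITGB3 was read on a probe set just over the level. Another, below the level, was lower without overlap, at 12.2, 28.1 and 39 after 8-Br-cAMP, against 55.8, 78.8 and 45.3 in controls. On the rest the groups overlapped.

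ITGA5, the α5 chain of the fibronectin receptor, had signals of 721.8, 245.6 and 269.5 after 8-Br-cAMP, against 251.7, 296.4 and 222.4 in controls. A single array, 8-Br-cAMP 1, set its mean log2 difference of 0.51 (-0.34 to 1.35, paired adjusted p = 0.458), and without both arrays numbered 1 the difference was 0.00. The remaining alpha chains ITGA2B, ITGA8, ITGA9 and ITGA10 differed by -0.25 to -0.04, and none of them passed. Of the integrin-binding genes, ITGB1BP1 had signals of 149.3, 106.3 and 102.9 after 8-Br-cAMP, against 205, 175 and 144.7 in controls. It was lower in all 3 pairs (log2 difference -0.56, -1.12 to 0.00, paired adjusted p = 0.238), with the highest 8-Br-cAMP array just above the lowest control. ITGB3BP, also known as a centromere protein, differed by -0.28 (-0.87 to 0.31, paired adjusted p = 0.557).

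**Figure D2:**
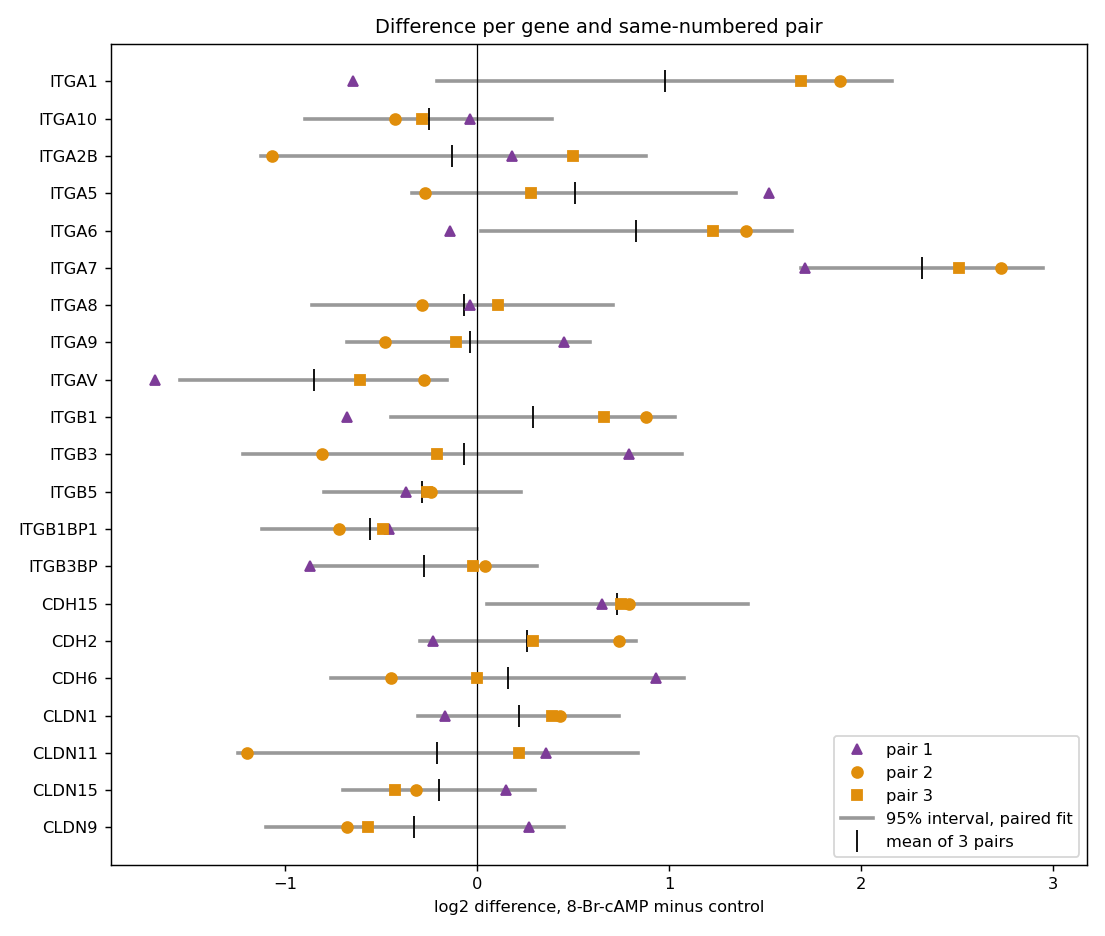
Log2 difference, 8-Br-cAMP minus control, of the 21 genes in each same-numbered pair (triangle, circle and square for pairs 1, 2 and 3), with the mean of the pairs as a tick and its 95% interval in the paired fit as a grey line. ITGA7 lies at 1.71 to 2.73 in all pairs, while ITGA1, ITGA6 and ITGB1 lie below 0 in pair 1 and above it in pairs 2 and 3.

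Of the cadherins, CDH2, which encodes N-cadherin, the classical cadherin of many tissues other than epithelia, had signals of 2125.7, 788.1 and 777.6 after 8-Br-cAMP, against 2496.4, 473.3 and 637.6 in controls. The arrays numbered 1 were the highest of both groups, and the groups overlapped. The log2 difference was 0.26 (-0.30 to 0.83, paired adjusted p = 0.568), and -0.23, 0.74 and 0.29 by pair. Its second probe set differed by 0.67 (paired adjusted p = 0.295). CDH15, the M-cadherin known from muscle, had signals of 166.6, 106.9 and 75.1 after 8-Br-cAMP, against 106.1, 61.8 and 44.7 in controls. It differed by 0.65, 0.79 and 0.75 in the 3 pairs, a mean of 0.73 (0.05 to 1.41), but its paired adjusted p was 0.210. CDH6, K-cadherin, differed by 0.16 (-0.76 to 1.08).

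CLDN1 differed more by array number than by treatment. This sealing claudin of epithelia had signals of 103.3, 1251 and 1133.8 after 8-Br-cAMP, against 116.6, 926.5 and 867.3 in controls. On the arrays numbered 1 its log2 signal minus the mean of arrays 2 and 3 was -3.53 after 8-Br-cAMP and -2.94 in controls, against a log2 difference between the groups of 0.22 (-0.31 to 0.74, paired adjusted p = 0.621). CLDN15, a pore-forming claudin, had 447.3, 822 and 735.2 after 8-Br-cAMP, against 404, 1026.8 and 990.2 in controls, and was likewise lower on the arrays numbered 1. It differed by -0.20 (-0.70 to 0.30, paired adjusted p = 0.628). CLDN9 and CLDN11 differed by -0.33 and -0.21, and neither passed.

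Leaving out both arrays numbered 1 moved 7 of the 21 genes past limma's threshold. ITGA7 (2.62), ITGA1 (1.79), ITGA6 (1.31), ITGB1 (0.77), CDH2 (0.51) and CLDN1 (0.41, log2 differences) rose and CLDN15 (-0.38) fell, at adjusted p between 2.25e-05 and 0.0391, although over all 6 arrays the difference of CLDN15 turned to 0.02 when arrays were scaled to a common median. The second CDH2 probe set rose by 1.15 on the log2 scale (adjusted p = 0.00123) and the second ITGA7 probe set by 1.84 (0.00316). The share, 33.3%, was that of all genes in the same fit, 33.3%, of which 12.8% rose and 20.5% fell. ITGAV differed by -0.44 there and did not pass (adjusted p = 0.0738). The fit rests on arrays 2 and 3, which are alike within each group, so its p-values may measure technical spread only.

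Stretches before the transcript start were read for 6 of the 7 genes that passed without the arrays numbered 1, namely ITGA6, ITGA1, ITGB1, CDH2, CLDN1 and CLDN15. No sequence was read here for ITGA7. The sequences are from RefSeq on GRCh38.p14 and cover 250 bases before the start in the direction of the gene. Those of 4 genes are shown because their genes moved there and differ in whether they hold the part TGACG, or on the other strand CGTCA, of the cyclic AMP response element TGACGTCA. The capitals mark it. They are ITGA6 (chr2:172427086-172427335, + strand), ITGA1 (chr5:52787666-52787915, + strand), ITGB1 (chr10:32958231-32958480, - strand) and CLDN15 (chr7:101237803-101238052, - strand).
ITGA6: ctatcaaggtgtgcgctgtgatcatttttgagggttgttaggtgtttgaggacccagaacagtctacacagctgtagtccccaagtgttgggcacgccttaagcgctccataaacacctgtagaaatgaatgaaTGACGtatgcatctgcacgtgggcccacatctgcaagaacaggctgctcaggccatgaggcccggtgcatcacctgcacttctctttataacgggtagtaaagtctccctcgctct
ITGA1: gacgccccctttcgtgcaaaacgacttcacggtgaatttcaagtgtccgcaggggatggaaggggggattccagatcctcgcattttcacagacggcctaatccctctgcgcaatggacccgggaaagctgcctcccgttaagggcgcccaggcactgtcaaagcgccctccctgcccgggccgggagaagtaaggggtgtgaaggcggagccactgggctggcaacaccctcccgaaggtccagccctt
ITGB1: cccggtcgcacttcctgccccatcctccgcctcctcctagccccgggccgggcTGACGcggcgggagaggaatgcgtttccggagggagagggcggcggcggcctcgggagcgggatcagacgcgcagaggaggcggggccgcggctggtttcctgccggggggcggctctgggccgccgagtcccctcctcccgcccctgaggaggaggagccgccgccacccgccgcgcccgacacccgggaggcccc
CLDN15: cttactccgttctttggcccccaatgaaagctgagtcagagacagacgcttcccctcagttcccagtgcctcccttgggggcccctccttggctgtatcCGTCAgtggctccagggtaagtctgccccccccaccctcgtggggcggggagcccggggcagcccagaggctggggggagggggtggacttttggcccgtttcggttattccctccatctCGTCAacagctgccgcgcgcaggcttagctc
The part stands 116 bases before the start in ITGA6, 197 in ITGB1, and 151 and 31 in CLDN15, and it was not found in the ITGA1 stretch. ITGA6 and ITGB1 have a further start in the table, and the stretch before the more upstream one is shown. Before the other start the part stands at 37 bases in ITGA6 and was not found in ITGB1. Of the 2 CDH2 stretches 1 held it, at 51 and 8 bases before the start, and that of CLDN1 did not. Of the 41 of 62 adhesion genes with a sequence, 15 held the part in at least 1 stretch (36.6%), against 24.9% of 27305 genes in the table, and 2, CLDN6 and CLDN7, held the whole element (4.88%, against 2.03%). Both of these gave weak signals. A gene with more starts has more stretches in which to hold the part. Counted by stretch, 29.0% of 62 held the part, against 21.2% of 35116, and 3.23% the whole element, against 1.65%. Of the 15 genes above the filter level with a sequence, 6 held the part (40.0%) and 0 the whole element. A match of letters is a description and not a site in use.

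**Figure D3:**
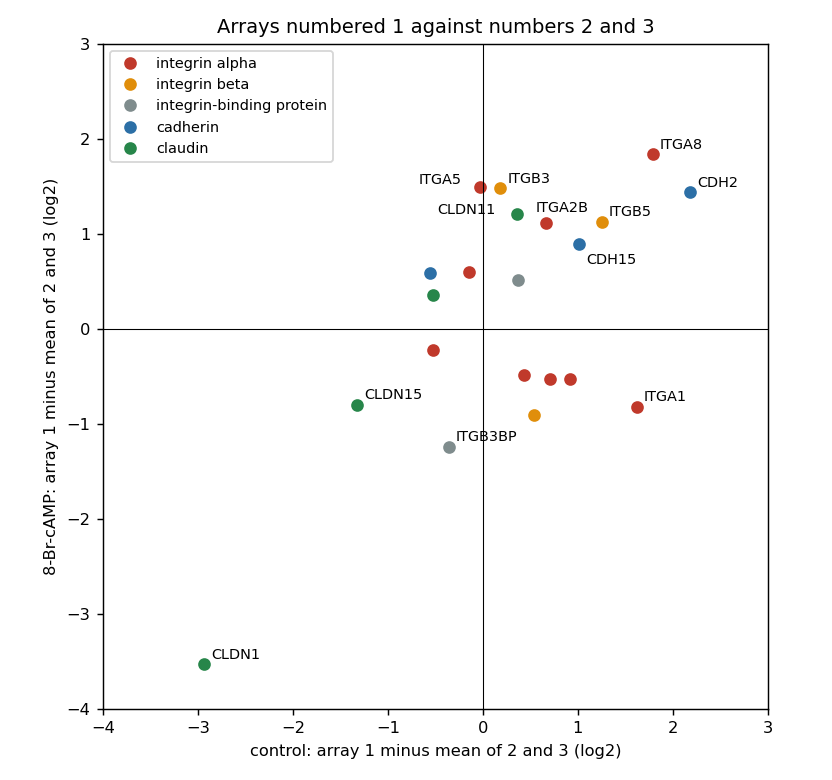
Log2 signal on the array numbered 1 minus the mean of arrays 2 and 3, after 8-Br-cAMP (vertical axis) and in controls (horizontal axis), for the 21 genes, coloured by family and named where either exceeds 1 in size. CLDN1 lies at -3.53 and -2.94, CDH2 at 1.44 and 2.18 and ITGA8 at 1.84 and 1.79, while ITGA1 lies at -0.82 and 1.62.

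The departure of the arrays numbered 1 differed in size and sign between genes. In size it exceeded 1 on the log2 scale for 9 of the 21 genes after 8-Br-cAMP and 7 in controls (42.9% and 33.3%), against 2751 and 1584 of all 7927 genes. On the probe sets used, CDH2 and ITGA8 were higher on the array numbered 1 of both groups, and CLDN1 was lower. The second CDH2 probe set had 341.3, 520.3 and 442.1 after 8-Br-cAMP, against 414, 232.6 and 200.5 in controls. It was thus lowest on array 1 after 8-Br-cAMP and highest on array 1 in controls. A probe set of ITGA6 below the filter level gave 1.8, 150.7 and 102.3 after 8-Br-cAMP and 5.8, 47.4 and 95.7 in controls and was at its lowest on the array numbered 1 of both groups. The probe set used for the gene was lowest on array 1 after 8-Br-cAMP and highest on array 1 in controls. The ratio of 3' to 5' actin signal was also highest on the array numbered 1 of each group, and its part in these departures was not tested.

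The 41 remaining genes gave weak signals, at a median of 13 over 246 values and between 0.7 and 84. In 26 of them no array reached the filter level. Of the 27 values that did, 16 were on the arrays numbered 1. These genes held all 7 connexins. GJA1, which encodes connexin 43, the connexin best described in adrenal cortex, had signals of 3.6, 11.9 and 26 after 8-Br-cAMP, against 18.4, 13.6 and 1.3 in controls. GJC1, connexin 45, had 10, 49.6 and 36 after 8-Br-cAMP, against 63.6, 60.2 and 47.1 in controls. The groups overlapped in both genes, and GJC1 was above the filter level on all 3 controls and 8-Br-cAMP 2. A weak signal bounds what these probe sets could measure and does not show that a transcript is missing.

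Weak signals also came from the epithelial E-cadherin gene CDH1, the claudins CLDN3 and CLDN4, and the endothelial genes CDH5 and CLDN5. CDH5, VE-cadherin, had signals of 4.4, 4.1 and 1.6 after 8-Br-cAMP, against 11.5, 7.6 and 2.7 in controls. CDH1 had signals of 31, 12.2 and 4.2 after 8-Br-cAMP, against 0.7, 1.9 and 2.8 in controls. CDH11, which encodes OB-cadherin, had 37.8, 37.1 and 35.3 after 8-Br-cAMP, against 13.8, 12.3 and 25.8 in controls. On these probe sets all 8-Br-cAMP arrays were above all controls, as in 2 of the 41 genes, where 10.1% of all genes below the level had groups without overlap. The other probe set of CDH11 went the opposite way, also without overlap, with 9.6, 9.8 and 7.2 after 8-Br-cAMP, against 13.7, 10.1 and 14.3 in controls. That of CDH1 overlapped, with 5.6, 2 and 0.9 after 8-Br-cAMP, against 1.4, 6 and 1.3 in controls. Fitted without the filter, 0 of the 41 passed limma with or without the block (2.33% of 11963 genes with it), and 1, CDH1, had an unadjusted p under 0.05 in each fit, against 5.6% of genes below the level without the block (9.48% of all genes) and 7.16% with it. Of the integrins, ITGA3 gave 30.1, 5.3 and 6.4 after 8-Br-cAMP, against 29.6, 13.7 and 18.6 in controls. ITGA2, ITGA4, ITGB2, ITGB4, ITGB7 and ITGB8 also had means below the level, as had ITGB1BP2.

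**Figure D4:**
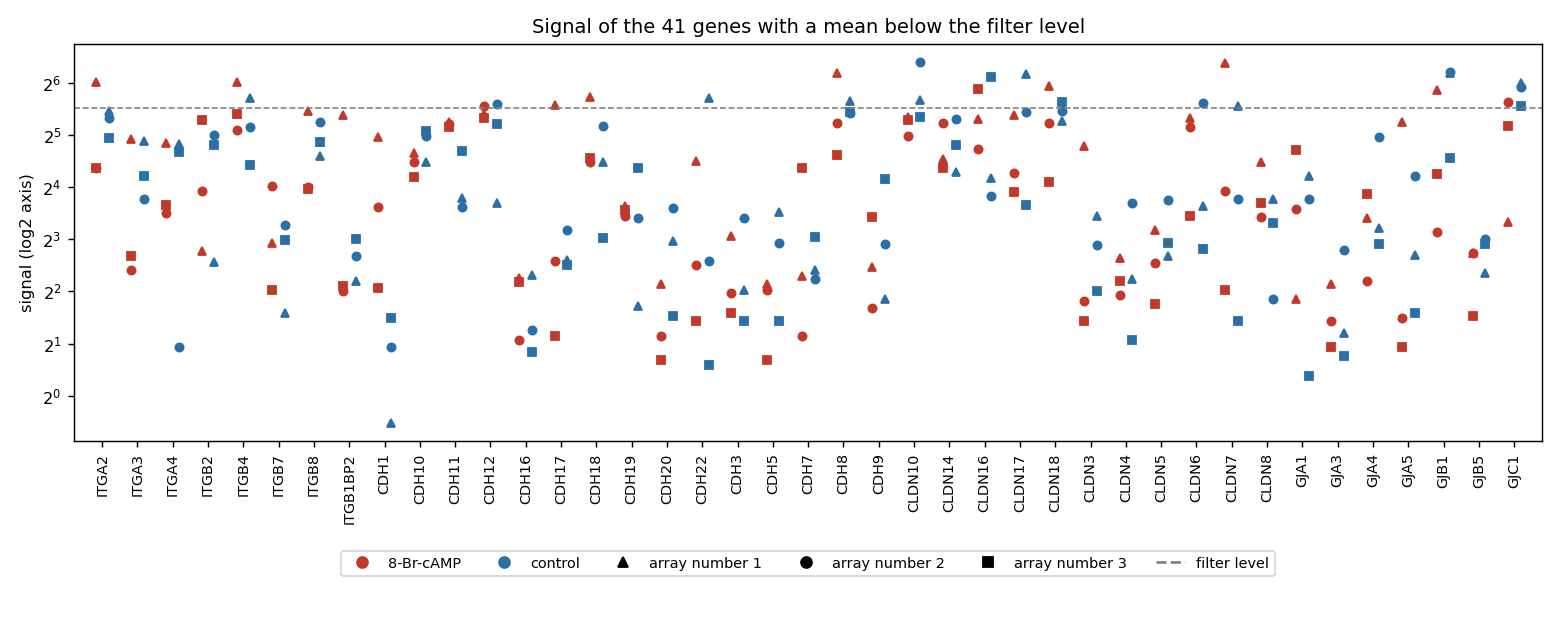
Signal on a log2 axis of the 41 genes whose mean was below the filter level, with 8-Br-cAMP left of control for each gene and array numbers as symbols. Values run from 0.7 to 84, and CDH1 and CDH11 are the genes in which the groups do not overlap on the probe set plotted.

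Genes that work with these receptors were taken from 7 lists of 127 genes, of which 59 were above the filter level. In the paired fit 8 of the 59 passed (13.6%, against 3.68% of all genes), 1 higher and 7 lower. Of all genes 1.73% passed as higher and 1.96% as lower. The median log2 difference of the 59 was -0.33. Without the block 0 passed (0% of all genes), with 14 of the 59 at an unadjusted p under 0.05 (11.9% of all genes). Without both arrays numbered 1, 25 passed (42.4%, against 33.3% of all genes), 6 higher and 19 lower. The lists were chosen with earlier results of these data known. These shares and the counts per list below are therefore no result about the lists.

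VCAM1, an integrin ligand and the counter-receptor of α4 and α9 integrins, had signals of 953.1, 298.7 and 314 after 8-Br-cAMP, against 4592.3, 1994 and 1868.6 in controls, without overlap. It fell by 2.53 on the log2 scale (SE 0.19, paired adjusted p = 0.0077). LAMB1, a chain of laminins, fell by 1.38 (SE 0.20, paired adjusted p = 0.0246), with 1572.2, 1210 and 1250 after 8-Br-cAMP, against 3210.5, 3272.8 and 4024.8 in controls. The matrix gene FBLN1, named here as the last of the 3 in its list to pass, also fell (-1.41, paired adjusted p = 0.0258), while its other 3 probe sets differed by -1.17, -0.01 and 0.53 and did not pass. Of 11 ligand genes above the level 3 fell and 0 rose, while LAMC1 differed by 0.09.

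Desmosomes, which carry cadherins of another branch, had 3 of 12 listed genes above the level, and 2 of these fell. PKP2, a plakophilin of the desmosomal plaque, had signals of 80.8, 115 and 141.3 after 8-Br-cAMP, against 262.1, 913.3 and 928.1 in controls, and fell by 2.47 (SE 0.30, paired adjusted p = 0.0147). PERP, a membrane protein that desmosomes need, fell by 1.07 (SE 0.19, paired adjusted p = 0.0395), with 1049.3, 1578.2 and 1530.7 after 8-Br-cAMP, against 1837.8, 3816.1 and 3330.7 in controls. In both genes the groups did not overlap.

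Of 17 integrin adaptors and focal adhesion genes, FERMT2 fell and 0 rose. It encodes kindlin-2, which binds the tails of beta chains, and had 212.6, 638.5 and 656.8 after 8-Br-cAMP, against 476.7, 1395.6 and 1412.5 in controls. The groups overlapped, with control 1 below 8-Br-cAMP 2 and 3, and the log2 differences by pair were -1.16, -1.13 and -1.10 (paired adjusted p = 0.0335). Its other 2 probe sets differed by -0.77 and -0.88 and did not pass. Of 6 regulators of cadherin transcription, TWIST1, a repressor of CDH1, fell by 1.86 (SE 0.20, paired adjusted p = 0.0132), at 357, 221 and 233.5 after 8-Br-cAMP, against 1083.8, 840.8 and 963.4 in controls. Of 9 catenin, linker and nectin genes, PVR, a nectin-like receptor, rose by 1.31 (SE 0.21, paired adjusted p = 0.0335), with 323.2, 419.8 and 403 after 8-Br-cAMP, against 114.9, 190.2 and 165.7 in controls. Its other 2 probe sets differed by 0.33 and 0.36 and did not pass.

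Of 7 tight junction scaffold genes 0, and of 6 other cadherin superfamily genes 0, passed the paired fit. TJP1, which encodes ZO-1, the scaffold that binds claudins and connexins, had signals of 674.9, 1890.5 and 2013.8 after 8-Br-cAMP, against 1646.2, 3365.2 and 3389.3 in controls (log2 difference -0.96, paired adjusted p = 0.0542). ILK, an adaptor kinase of β1 integrins, differed by -1.27 (paired adjusted p = 0.0507). CTNNB1, the β-catenin gene, differed by 0.55 (paired adjusted p = 0.253) and NECTIN3 by 2.29 (0.0784). These 4 genes and LAMC1 were named after their values were seen, and all 5 passed without both arrays numbered 1.

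**Figure D5:**
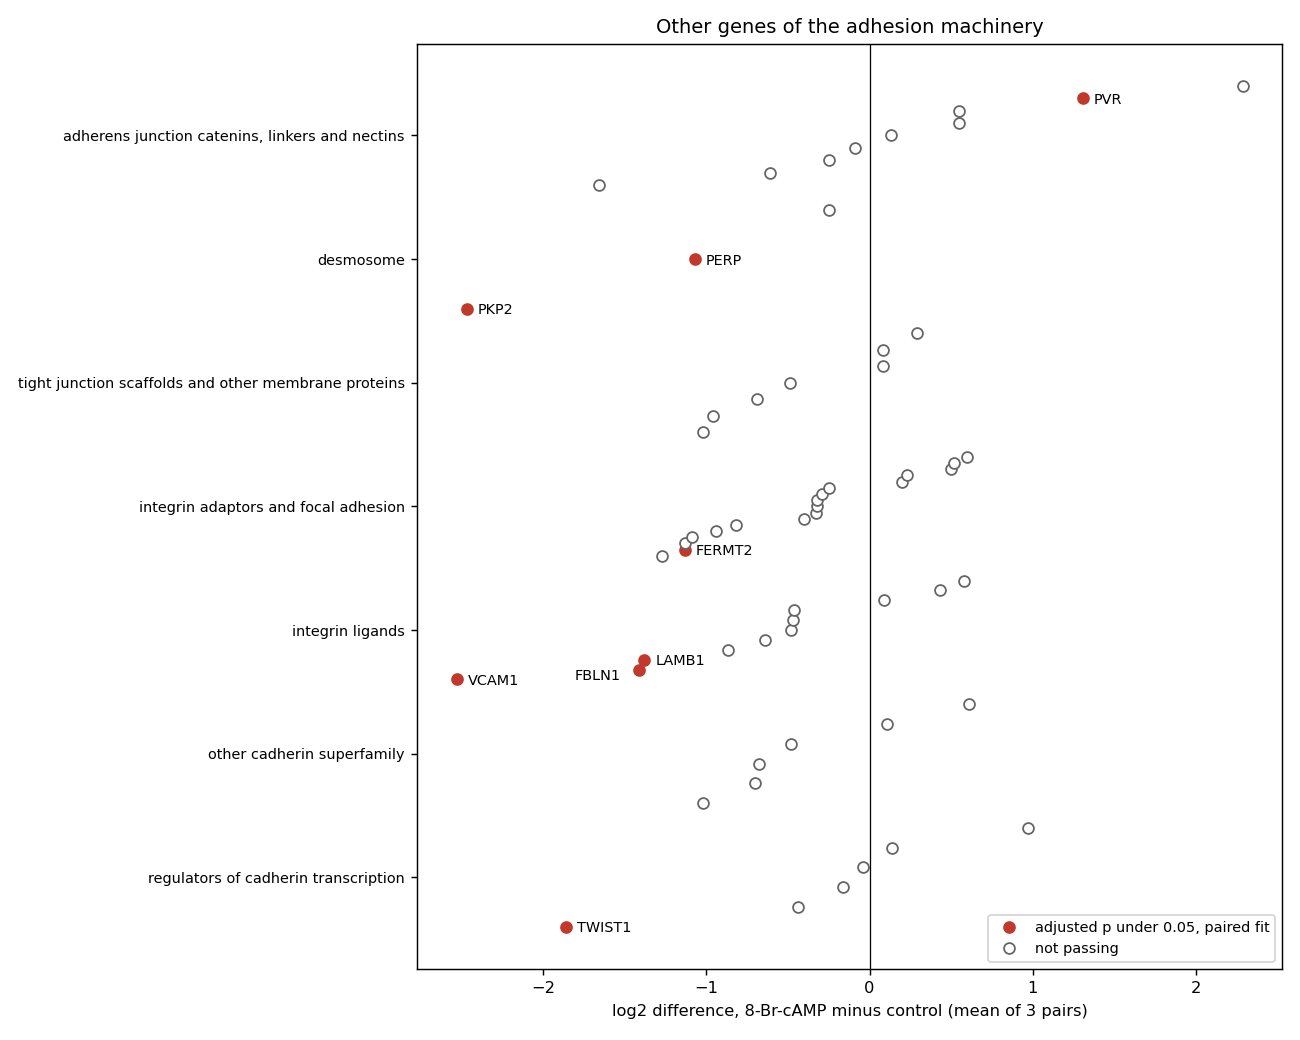
Log2 difference, 8-Br-cAMP minus control, as the mean of 3 pairs for the 59 genes of the adhesion machinery above the filter level, by list. Filled points passed the paired fit at an adjusted p under 0.05, with PVR at 1.31 and the other 7 between -2.53 and -1.07.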

How the data were processed

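Signals of 22277 probe sets on 6 arrays were deposited as intensities on a linear scale, which the authors made with GCOS 1.3 per the labels' protocols. The 2% trimmed mean of each column lay between 249.996 and 250.155, so the intensities were used without further normalization. Scaling to a common mean hides a shift of most transcripts. Of 22215 probe sets that are no array controls, 19064 have 1 symbol in GEO's platform annotation, 1043 several and 2108 none listed, and probe sets with several were left unnamed, among them 5 that hold a gene of these families. Gene IDs of 19052 matched the current gene table. Detection calls were not used here.

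The limma package 3.58.1 (R 4.3.3) was fitted to log2 intensities by lmFit and eBayes with an intensity trend, two-sided, on the 13329 probe sets above the 40th percentile of mean log2 signal, with Benjamini-Hochberg adjustment over all of them and a threshold of 0.05. The main design had no block. Departures from the group mean correlated between arrays of one number at 0.603, 0.378 and 0.538 for numbers 1, 2 and 3. Each is over 0.1, so arrays were treated as paired by number, from the data and not the labels, and the fit with the number as a replicate block is the paired fit. Control 3 correlated slightly better with 8-Br-cAMP 2 (0.547), and control 2 correlated with 8-Br-cAMP 3 at 0.312, both also over 0.1. The correlations thus set the arrays numbered 1 apart. They cannot tell numbers 2 and 3 from each other or show that plates were paired. Genes named are those of the families that passed, the 5 with the smallest unadjusted p, a fixed set, the largest moves per family without the arrays numbered 1, the top 2 passing genes per partner list, and those stated to be named after their values were seen. The families, gene lists and rules were chosen with earlier results of these data known. Fits were tested on simulated data. The precision is limited by the number of arrays. With 3 arrays against 3, an exact permutation test cannot go below 0.1.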

Additional observations from a re-analysis of the deposited data

How the results depend on the processing

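With the replicate block 1 adhesion gene passed in place of 0, 8 partner genes in place of 0 and 428 probe sets in place of 0. Without both arrays numbered 1 the counts were 7, 25 and 4103. Leaving out each array or pair in turn, they ran from 0 to 8, 0 to 28 and 0 to 4680. With the block, 6 and 4 partner genes passed without pair 2 and without pair 3. The highest counts came without pair 1, and without 8-Br-cAMP 1 alone 1 adhesion gene, 4 partner genes and 285 probe sets passed, and without control 1 alone 1, 1 and 58. ITGA7 was that 1 adhesion gene, also with quantile normalization, a pseudocount of 16, a floor at percentile 20 and a filter at percentile 60, each with and without the block, and with the block also with a common median, no filter, no trend and robust variances. It passed 9 of 10 fits with the block (adjusted p 0.00864 to 0.289, the last from the unmoderated test). Without the block it missed in the main fit (limma adjusted p = 0.0511) and passed 4 of 9 others (0.0434 to 0.11). Its log2 difference ran from 2.11 to 2.62. Without the block, 17 probe sets passed with quantile normalization, 17 with a common median, 18 with the stricter filter, 23 with the floor, 26 with the pseudocount and 1 with the unmoderated test. The median difference of all probe sets, -0.13 as deposited, was -0.03 after quantile normalization and 0.09 with a common median, and that of the adhesion genes was 0.14 and 0.15 there, and 0.22 with the stricter filter, which kept 13 of them. Leaving out 1 array or pair it ran from -0.22 to 0.14. Several small differences changed sign. CLDN15 was 0.02 with a common median, with and without the block, and ran from -0.64 to 0.06 without 1 array. ITGB3BP was 0.01 without both arrays numbered 1 and ran from -0.51 to 0.13. CDH2 ran from -0.22 to 0.99, CLDN1 from -0.77 to 1.39 and ITGB1 from -0.01 to 0.77. A probe set of FBLN1 differed by 0.53. The cause was not tested. The paired calls of PVR, PKP2, PERP, FERMT2, LAMB1 and FBLN1 held in 7 or 8 of 10 fits with the block, and those of VCAM1 and TWIST1 in 9. None of these fits left out an array. With the block but without pair 2, PVR, PERP and FERMT2 did not pass limma (adjusted p 0.0587, 0.184 and 0.134). Without pair 3 these genes did not pass either (0.125, 0.21 and 0.192). PKP2 and VCAM1 passed both times.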
